A study of Mus musculus with 6 samples.

Results

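The genes of the ubiquitin-conjugating (E2) enzymes were taken by name, as every row whose gene name, or 1 of its joined names, starts with Ube2 and a lower-case letter. This gave 37 of 23698 rows, and 32 of them passed the filters on low values. The values come from 3 libraries of SCCc, a mouse squamous cell carcinoma line, with 1 ribosome profiling library and 2 RNA-seq replicates. The line was generated earlier, carries HrasG12V and a Tgfbr2 fl/fl KO, is labelled as keratinocytes of P0 back skin and was used between passages 10 and 15. Every library comes from this 1 condition, the 3 long-read libraries and all wild-type libraries were not analysed here, and so each value compares genes within the same cells.

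An E2 enzyme receives ubiquitin, or a related small protein, from an E1 activating enzyme on a cysteine and passes it on to substrates, mostly together with an E3 ligase. The E2 helps to set which kind of ubiquitin chain is built, and with it whether a protein is degraded, relocated or used in signalling. A few members carry other modifiers such as NEDD8 or ISG15, and the UEV variants have an E2 fold without the catalytic cysteine.

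Ribosome profiling reads the mRNA pieces covered by ribosomes, or footprints, and RNA-seq gives the amount of mRNA. Counts on exons summed to 3549555 in ribosome profiling and to 10707930 and 14003713 in RNA-seq replicates 1 and 2, and 3198469 footprints lay on coding sequence (CDS). The spread between RNA-seq replicates exceeded sampling noise (chi-square 6.35 per degree of freedom, 12502 genes), and both were kept as separate samples. The labels do not say whether they came from separate cultures. The ribosome profiling library has no replicate among the libraries used here, so no test was run on it, and other ribosome profiling libraries of this line were not analysed here. The modified genes had reads in every library, with 128 footprints and 1179 and 1619 RNA-seq counts for *Hras* and 193, 3150 and 3958 for *Tgfbr2*, but such counts do not show a base change or a lost exon.

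The labelled cell type was compared with marker genes. The 7 listed markers of basal keratinocytes summed to 14498 and 16623 RPKM in RNA-seq replicates 1 and 2, with *Krt5* the most abundant at 7965 and 9483 RPKM. The 7 fibroblast markers summed to 9.98 and 15.6 RPKM, led by *Col3a1* at 3.89 and 5.49 RPKM, the 4 melanocyte markers to 5.38 and 5.47 RPKM, led by *Pmel*, and the 2 endothelial markers to 0.160 and 0.270 RPKM. Of the 3 immune markers, which summed to 35.2 and 37.5 RPKM, *Cd3e* had 0 counts and *Cd68* gave nearly the whole sum. The 4 suprabasal markers summed to 118 and 120.0 RPKM, led by *Ivl*, and *Krt8* and *Krt18* together reached 5.81 and 6.44 RPKM, although their footprints summed to 124 RPKM.

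Rows that did not pass held almost no reads. *Ube2dnl1*, *Ube2dnl2* and *Ube2ql1* had 0 counts in all 3 libraries, which allows a share of up to 8.45e-05% of the footprints and 2.80e-05% and 2.14e-05% of the RNA-seq counts. *Ube2d2b* had a CDS count of 0.84 in ribosome profiling and 0 in RNA-seq, and *Ube2u* had 0.96 footprints and 1 and 0 RNA-seq counts. *Ube2cbp* matches the name rule but encodes a protein that binds Ube2c and acts as an E3 ligase, so 31 of the 32 passing rows are E2 or UEV genes in the strict sense. *Ube2j2* was counted in a row joined with *Gm5801*, a processed pseudogene.

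RNA-seq density on exons had a median of 24.8 RPKM over the 32 passing genes, against 15.3 RPKM over all 9863 passing genes, a difference of 0.69 on the log2 scale, with 24 of the 32 above that median. The difference was 0.38 among genes with 100 or more counts in each library. Libraries of bulk cells cannot tell a low amount of RNA in every cell from expression in few cells. Footprint density on the CDS had a median of 81.9 RPKM, against 19.1 RPKM over all passing genes. In RNA-seq, *Ube2v1*, *Ube2h*, *Ube2b*, *Ube2c* and *Ube2m* had the highest means, from 68.6 RPKM in *Ube2m* to 132 RPKM in *Ube2v1*. In footprints the order was another one, with *Ube2l3* at 594 RPKM, *Ube2c* at 576, *Ube2n* at 496 and *Ube2v1* at 434 RPKM among the highest. RNA-seq level and footprint level had a Spearman rho of 0.56 across the 32 genes, which come from the same libraries and are not independent replicates.

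**Figure D1:**
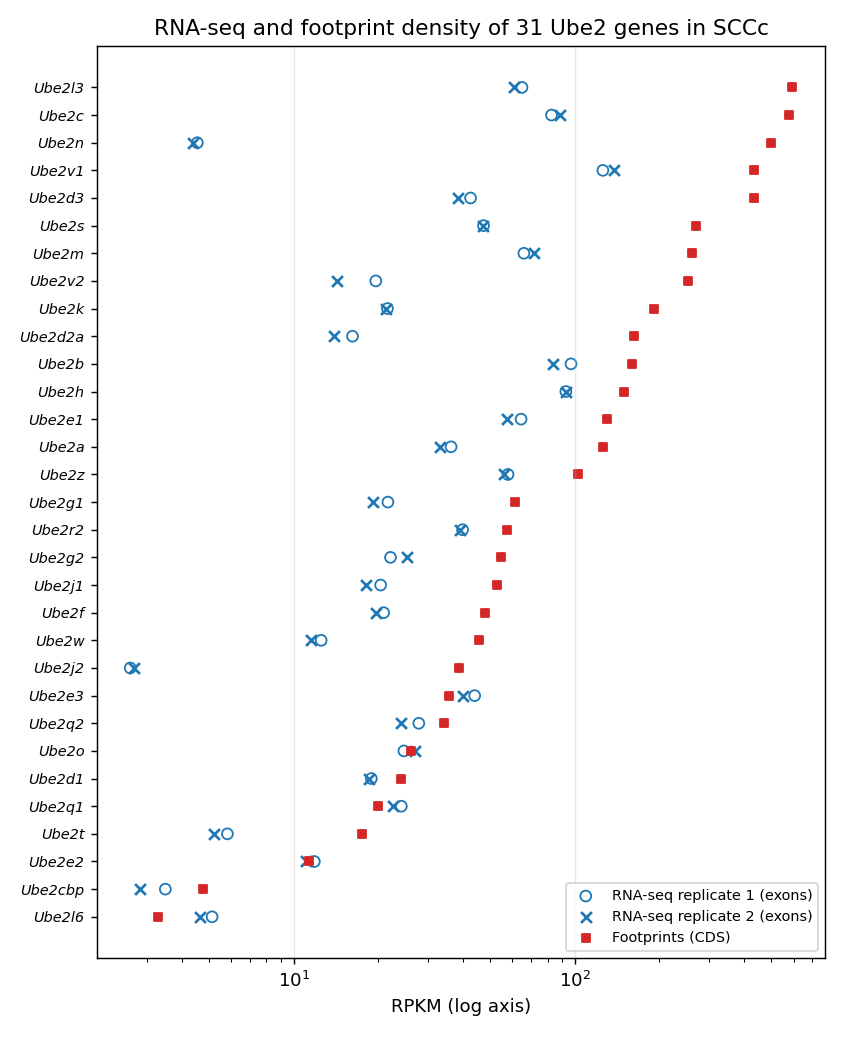
RPKM on a log axis for 31 of the passing genes, with RNA-seq on exons in replicate 1 (open circles) and replicate 2 (crosses) and footprints on the CDS (squares). Genes are ordered by footprint density, from Ube2l6 at 3.29 RPKM to Ube2l3 at 594 RPKM, and Ube2n and Ube2j2 combine few RNA-seq reads with far denser footprints.

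Translational efficiency was computed as log2 of CDS footprint density divided by the RNA-seq density on exons, averaged over replicates, minus the median of all passing genes. The median over the E2 genes was 1.18. Of the 32 genes, 17 lay above 1, where 20.8% of all 9863 passing genes did, and 0 lay below -1, where 21.1% of all passing genes did. In all, 27 of the 32 were above the median of all genes, and the range ran from -0.91 in *Ube2l6*, on 5.36 footprints, to 6.45 in *Ube2n*. Not dividing by length gave a median of 0.25, with 8 genes above 1, where 19.2% of all genes then were, and 2 below -1, where 21.1% were. Requiring that 80% or more of the annotated CDS was counted gave 10 of 22 above 1, against 19.7% of all genes.

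**Figure D2:**
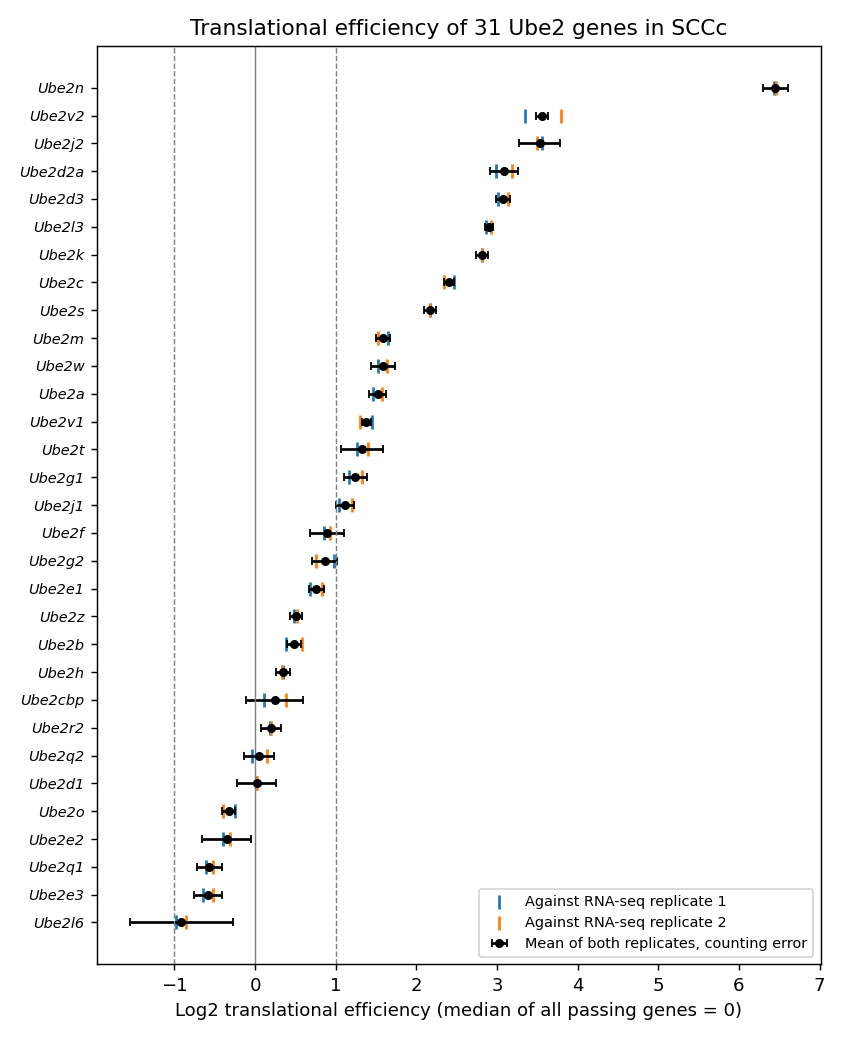
Log2 translational efficiency of 31 of the passing genes relative to the median of all passing genes. Points use the mean of both RNA-seq replicates, horizontal bars are the counting error of 1 SE, vertical ticks give the value against each RNA-seq replicate alone, and dashed lines mark -1 and 1. Ube2n lies furthest right, and 0 genes lie left of the lower line.

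Start codon contexts are shown for 5 of the highest and the 6 lowest genes by translational efficiency among the 20 that reached 100 counts in each library, since the bases around the AUG are the best known sequence feature of initiation. Each run covers 12 nt before the start codon to 6 nt after it in the GENCODE M21 transcript (GRCm38), with position -3, the start codon and position 4 in capitals, counted from the A of the start codon. The highest come first.
Ube2n: ggatctgacAagATGGccggg
Ube2v2: tagcaggagAagATGGcggtc
Ube2d3: aaagcacagActATGGcgctg
Ube2l3: accagatccAagATGGcggcc
Ube2k: gcgggcagaGacATGGccaac
The 6 lowest follow.
Ube2e1: ggggggttcGctATGTcggat
Ube2z: agcgaagcaGcgATGGcggag
Ube2b: cagctgcggAgcATGTcgacc
Ube2h: agcggcgacAccATGTcatcc
Ube2r2: gccgccgccGcgATGGcccag
Ube2o: cgcagagcaGttATGGcggat
All 11 had a purine at position -3, as did 30 of the 31 passing E2 rows with a context and 87.3% of 9325 passing genes. A G at position 4 was present in 48.4% of the E2 rows against 54.4% of all passing genes. Annotated transcripts that open with a C and 4 pyrimidines, as in a 5′TOP motif, made up 1 of 83 transcripts of the E2 genes, in *Ube2v1*, and 2.32% of 20713 transcripts of all passing genes.

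The E2 of K63 chains and its UEV partners had 3 of 3 genes above 1 and a median of 3.56, the highest of the groups when densities were divided by length. Without that division only *Ube2n*, at 2.21, was above 1, and the E2s of the anaphase-promoting complex stood higher, at 2.80 and 2.62. Of all passing genes, 20.8% lay above 1 with division by length. The share of 29-nt stretches of the CDS also found at other loci was 100% in *Ube2n* and *Ube2v2* and 96.4% in *Ube2v1*. Among all passing genes with at least 50% of such stretches elsewhere, 63.6% lay above 1. *Ube2n* (chr10:95515145-95545657, plus strand) encodes an E2 that builds K63-linked chains in DNA damage tolerance and NF-kB signalling. It had 127 footprints on the CDS, or 496 RPKM, and 134 and 169.9 RNA-seq counts, or 4.54 and 4.40 RPKM, in replicates 1 and 2. Its log2 translational efficiency of 6.45 ± 0.02 (SD over the RNA-seq replicates, n = 2) carried a counting error of 0.15. This value rests on 72 nt, since 15.8% of the annotated CDS was counted, the lowest share among the E2 genes and the single one under 25%.

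*Ube2v1* and *Ube2v2* encode the UEV partners that position the acceptor ubiquitin for it. *Ube2v1* had 679 footprints, or 434 RPKM, and 2627 and 3749 RNA-seq counts, or 126 and 137 RPKM. Its log2 translational efficiency was 1.38 ± 0.10 (SD, n = 2), but 2.13 with RNA-seq counted on the CDS, 0.25 without division by length and 0.99 among genes with 100 or more counts in each library. In GENCODE M21, exons of *Gm20431* on the same strand cover 61.5% of its exon positions, so reads of these genes cannot be told apart there. *Ube2v2* had 390 footprints, or 253 RPKM, and 1236 and 1175 RNA-seq counts, or 19.6 and 14.2 RPKM. The difference of -0.46 between its replicates on the log2 scale was the largest among E2 genes that reached 100 counts in both, ahead of *Ube2b* (-0.22) and *Ube2d2a* (-0.22). Its log2 translational efficiency of 3.56 ± 0.31 (SD, n = 2) therefore had a wider spread than those of the other named members, but stayed above 3 against either replicate, at 3.35 and 3.79. It was 2.43 with RNA-seq counted on the CDS and 0.81 without division by length.

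*Ube2z* and *Ube2l6* also carry modifiers other than ubiquitin. *Ube2z*, an E2 that accepts ubiquitin and FAT10 from Uba6, had 389 footprints, or 103 RPKM, and 2462 and 3108 RNA-seq counts, or 57.8 and 55.9 RPKM, which gave a log2 translational efficiency of 0.51 ± 0.02 (SD, n = 2). *Ube2l6*, the interferon-induced E2 of ISG15, had the lowest log2 translational efficiency at -0.91, with a counting error of 0.64.

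Ube2d and Ube2e enzymes work with many RING ligases, and 2 of their 6 passing genes were above 1, with a median of 0.39. *Ube2d3* (chr3:135438149-135468198, plus strand) had 331 footprints, or 432 RPKM, and 686 and 810.4 RNA-seq counts, or 42.6 and 38.5 RPKM. Its log2 translational efficiency was 3.07 ± 0.09 (SD, n = 2), on 41.8% of the annotated CDS. The close relative *Ube2d2a* had 89.2 footprints, or 162 RPKM, and 181 and 204 RNA-seq counts, or 16.2 and 13.9 RPKM, which gave 3.09 ± 0.14 on 35.1% of the CDS. With RNA-seq over exons, both stood more than 2 log2 units above the other 4 genes of the group. These were *Ube2e1* (0.76), *Ube2d1* (0.02), *Ube2e2* (-0.35) and *Ube2e3* (-0.58). *Ube2d3* and *Ube2e1* were closer with RNA-seq counted on the CDS, at 2.53 and 0.62, and without division by length, at 1.28 and 0.51. *Ube2e1* had 268 footprints, or 130.4 RPKM, and 956 and 1111 RNA-seq counts, or 64.4 and 57.2 RPKM. Its exons overlap those of *Nkiras1* on the opposite strand over 16.1% of their positions.

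Both E2s of the anaphase-promoting complex were above 1, with a median of 2.29. *Ube2c* (chr2:164769898-164778822, plus strand) starts ubiquitin chains on mitotic cyclins and securin, and *Ube2s* elongates them through K11. *Ube2c* had 849 footprints, or 576 RPKM, 563 and 791 RNA-seq counts, or 82.6 and 88.6 RPKM, and a log2 translational efficiency of 2.41 ± 0.08 (SD, n = 2). Its value was the same, 2.41, when RNA-seq was counted on the CDS in place of exons. *Ube2s* stood at 2.17 on exons and 1.92 on the CDS. *Ube2c* shares 22.8% of its exon positions with *Tnnc2* on the opposite strand.

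The Rad6 type genes had different values in these libraries. *Ube2a*, which with *Ube2b* ubiquitinates histone H2B and PCNA, stood at 1.52 ± 0.08 (SD, n = 2). *Ube2b* (chr11:51985497-52000762, minus strand) had 258 footprints, or 159.6 RPKM, 2205 and 2479 RNA-seq counts, or 96.9 and 83.3 RPKM, and a log2 translational efficiency of 0.48 ± 0.14. With RNA-seq counted on the CDS, *Ube2b* fell below the median of all genes, to -0.62, and *Ube2a* stood at 1.02. The counting errors were 0.11 in *Ube2a* and 0.09 in *Ube2b*. These errors and the SD over the RNA-seq replicates leave out the spread between ribosome profiling libraries, which a single library cannot give. The difference between the genes was not tested. Their footprint densities were close, at 126 and 159.6 RPKM, whereas RNA-seq density in replicate 1 was 36.3 RPKM in *Ube2a* and 96.9 RPKM in *Ube2b*.

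Of the E2s of the name rule that serve cullin ligases, 1 of 3 was above 1. *Cdc34*, an SCF E2 outside the rule, had 94.7 footprints, or 54.5 RPKM, 728 and 1069 RNA-seq counts, or 74.8 and 84.0 RPKM, and stood at -0.89 ± 0.13 (SD, n = 2), or -1.32 with RNA-seq counted on the CDS. *Ube2m*, the NEDD8 E2 of most cullins, had 279 footprints, or 261 RPKM, 1105 and 1566 RNA-seq counts, or 65.9 and 71.4 RPKM, and 1.59 ± 0.09 (SD, n = 2) on 42.9% of the CDS. *Ube2f*, the NEDD8 E2 that acts with Rbx2 on Cul5, stood at 0.89. *Ube2r2*, a Cdc34 type E2 that extends K48 chains with SCF ligases, had 146 footprints, or 57.5 RPKM, 1410 and 1810 RNA-seq counts, or 39.9 and 39.2 RPKM, and 0.20 ± 0.01. With RNA-seq counted on the CDS it fell to -0.98, the lowest value on that scale among the genes of the name rule. On the same scale *Ube2m* fell below 1, to 0.95, and *Ube2f* rose above it, to 1.13.

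Among the E2s of K48 chains and of the endoplasmic reticulum, 4 of 5 were above 1, with a median of 1.24. *Ube2k* (chr5:65537233-65598988, plus strand), which builds K48 chains without a ligase in vitro, had 406 footprints, or 191 RPKM, 1016 and 1313 RNA-seq counts, or 21.6 and 21.3 RPKM, and 2.81, with less than 0.01 between the values against either replicate. *Ube2j2* and *Ube2j1*, membrane-anchored E2s of protein quality control, stood at 3.53 and 1.12, and *Ube2g1* and *Ube2g2* at 1.24 and 0.86. Of the 3870 nt of exon in the joined row of *Ube2j2*, 1191 nt were neither CDS nor UTR and held almost no RNA-seq counts. The exon density behind 3.53 is averaged over this length too. Of the 4 genes above 1, only *Ube2j2*, at 1.01 on 37.8 footprints, was still above 1 with RNA-seq counted on the CDS, and against replicate 2 alone it was below, at 0.97. *Ube2k* then stood at 0.92 and *Ube2g1* at 0.31. Without division by length each of the 5 was below 1, from -0.61 in *Ube2g1* to 0.95 in *Ube2k*.

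*Ube2l3* (chr16:17152013-17202649, minus strand) encodes the cysteine-transferring partner of HECT and RBR ligases such as Parkin and HOIP. It had the densest footprints of all E2 genes, 974 on the CDS or 594 RPKM, and 1812 and 2227 RNA-seq counts, or 64.9 and 61.0 RPKM. Its log2 translational efficiency was 2.90 ± 0.05 (SD, n = 2). *Ydjc*, on the opposite strand, covers 28.6% of its exon positions.

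*Ube2h*, the E2 of the CTLH ligase, which is known for its rise in maturing red cells, ranked among the 5 highest for exon RNA-seq. On the CDS its mean was 42.5 RPKM, which was not among the 5 highest. It had 4755 and 6238 RNA-seq counts, or 92.9 and 93.2 RPKM, with 289 footprints, or 149.7 RPKM, and a log2 translational efficiency of 0.34 ± 0.01 (SD, n = 2). This value depended on how it was computed, with 1.77 when RNA-seq was counted on the CDS and -1.78 without division by length. *Ube2o*, a large enzyme with E2 and E3 activity, was below the median of all genes at -0.32 ± 0.10, with 359 footprints, or 26.2 RPKM, and 1371 and 1963 RNA-seq counts, or 24.7 and 27.0 RPKM. Without division by length *Ube2o* was above the median, at 0.26. *Ube2w*, which modifies N-termini, and *Ube2t*, the E2 of the Fanconi anaemia pathway, stood at 1.58 and 1.33. With RNA-seq counted on the CDS, *Ube2w* fell to 0.71 and *Ube2t* stood at 1.11. Without division by length they stood at -0.13 and 1.45. Of this group of 5, 3 were above 1 over exons, and 3 over the CDS, with *Ube2h* in place of *Ube2w*. In the remaining group, *Ube2q1* (-0.57), *Ube2q2* (0.05) and *Ube2cbp* (0.24), 0 of 3 were above 1 over exons. Over the CDS 1 of 3 was, *Ube2q2* at 2.67.

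Which part of the mRNA the RNA-seq reads fell on differed between members, at shares near those of all genes. Over 31 E2 genes with enough reads on both regions, RNA-seq density on the 3′UTR relative to the CDS had a median of -0.81 on the log2 scale, against -0.61 over 8941 passing genes. It was below 0.25 of the CDS density in 6 of them, where 14.2% of all such genes were, and above the CDS density in 5, where 16.6% were. *Ube2s* had 68.7 RPKM on the CDS and 4.01 RPKM on the 3′UTR, the lowest ratio among them. *Ube2k* had 97.8 and 8.37 RPKM. The other way round, *Ube2q2* had 5.17 RPKM on the CDS and 41.7 RPKM on the 3′UTR. *Ube2h* had 42.5 and 115 RPKM. An average over exons weights these regions by their length, and the 3′UTR made up a median of 62.4% of the counted exon length in E2 genes, against 35.8% in all passing genes.

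**Figure D3:**
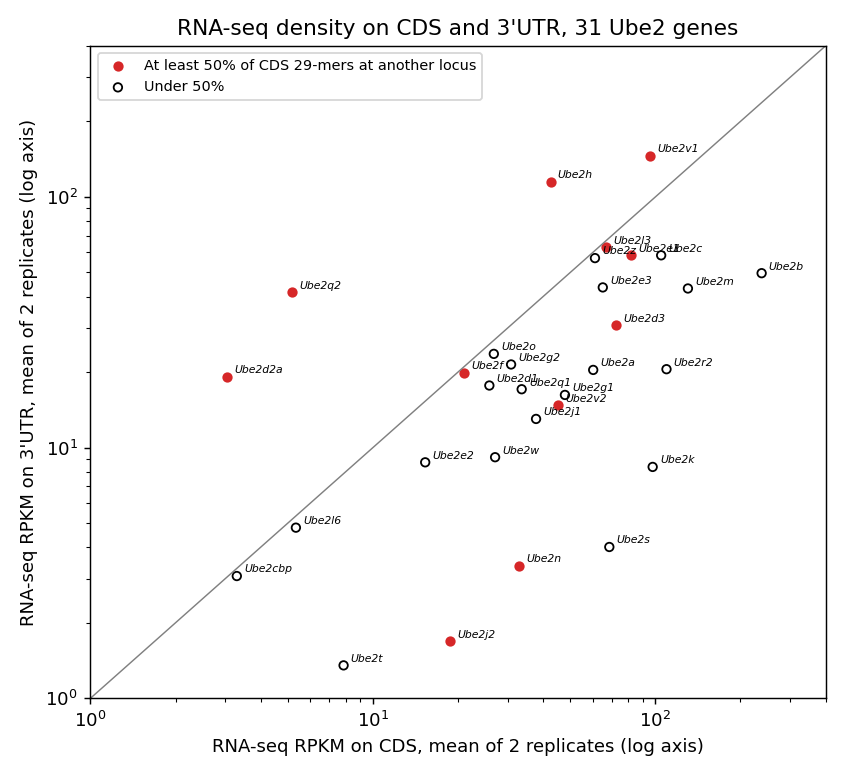
Mean RNA-seq RPKM of both replicates on the CDS (x axis) and on the 3′UTR (y axis), both on log axes, for 31 of the passing genes. The diagonal marks equal density, and filled points are genes with at least 50% of their CDS 29-mers at another locus. Ube2k and Ube2s lie far below the diagonal and Ube2q2, Ube2d2a and Ube2h above it.

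With RNA-seq counted over the CDS, the median log2 translational efficiency of the 32 genes was 0.93. Of them, 15 lay above 1, where 18.3% of 9862 passing genes did, and 0 lay below -1, where 19.5% did. Single genes moved further than the median. *Ube2n* went from 6.45 to 3.86, on 25.6 and 33.1 RNA-seq counts on the CDS. *Ube2d2a* went from 3.09 to 5.68, on 5.90 and 5.51 RNA-seq counts on the CDS, and *Ube2q2* from 0.05 to 2.67. *Ube2l3*, *Ube2c* and *Ube2s* moved by less than 0.3.

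**Figure D4:**
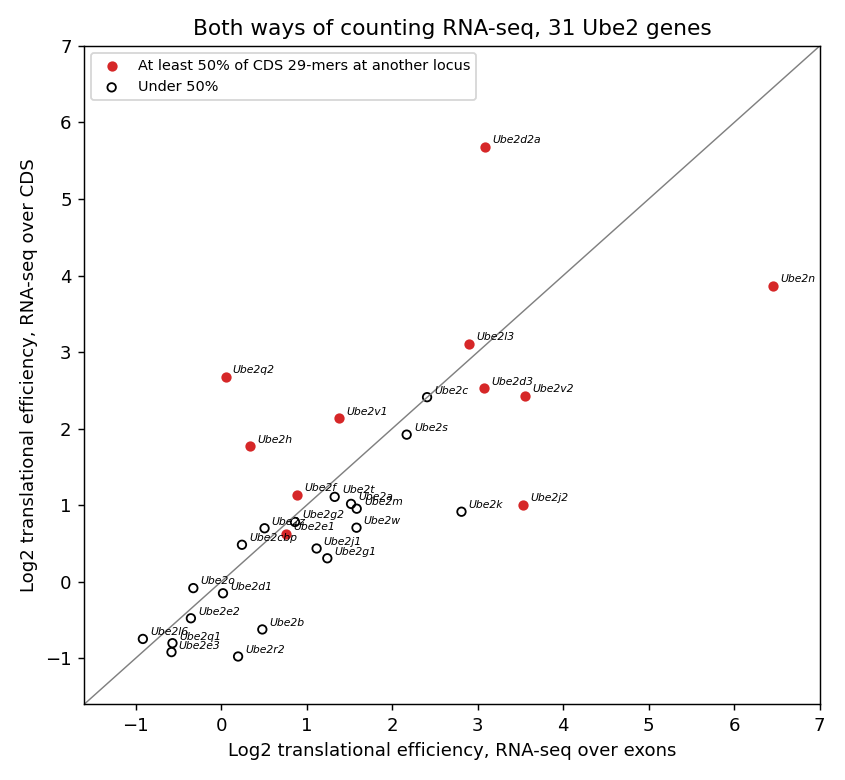
Log2 translational efficiency of 31 of the passing genes with RNA-seq counted over exons (x axis) and over the CDS (y axis), each relative to the median of all passing genes. The diagonal marks equal values, and filled points are genes with at least 50% of their CDS 29-mers at another locus. Ube2d2a, Ube2q2 and Ube2h lie above the diagonal and Ube2n, Ube2j2 and Ube2k below it.

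Many E2 genes have close copies, mostly processed pseudogenes, and a short read from a stretch identical in a copy cannot be assigned to either. Every stretch of 29 nt of a CDS, about the size of a footprint, was looked up in the GENCODE M21 transcripts of genes at other loci. At least 50% of these 29-mers were found elsewhere for 12 of the 32 E2 genes, where 6.6% of 9451 passing genes reached that share. All 29-mers were shared in genes such as *Ube2n*, *Ube2d2a*, *Ube2l3* and *Ube2v2*. The share was 96.4% in *Ube2v1*, 92.1% in *Ube2h*, 78.4% in *Ube2q2*, 76.8% in *Ube2j2*, 75.5% in *Ube2d3*, 74.6% in *Ube2f* and 56.4% in *Ube2e1*. *Ube2c* had 24.0%, and the other 19 genes had less than 10%, *Ube2k* among them with 0.

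Close copies of *Ube2n* and *Ube2d3* were compared base by base. The CDS of *Ube2n* is identical over 456 of 456 nt to *Ube2n-ps1*, a processed pseudogene (chr5:76232612-76233070, minus strand). *Ube2d3* and the processed pseudogene *Gm15361* (chrX:74494379-74494822, minus strand) are identical over 425 of 441 nt, or 96.4%. The 30 nt with the most differences are shown for each pair, counted from the A of the start codon, with differing bases in capitals. For *Ube2n*, which has none, these are nt 1 to 30, and for *Ube2d3* nt 410 to 439.
Ube2n: atggccgggctgccccgcaggatcatcaag
Ube2n-ps1: atggccgggctgccccgcaggatcatcaag
Ube2d3: TatctCgggaatggActcagaagtatGccA
Gm15361: GatctTgggaatggGctcagaagtatAccG

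Translational efficiency was higher in the E2 genes with shared sequence, and so it was in all passing genes. The 12 E2 genes with at least 50% shared 29-mers had a median of 2.98 with RNA-seq over exons, with 8 above 1, and 2.48 over the CDS, with 11 above 1. The 624 passing genes with such a share had medians of 1.58 and 1.64, with 63.6% above 1 over exons and 412 genes above 1 over the CDS. The 19 E2 genes with under 10% shared had medians of 0.51 over exons, with 8 above 1, and 0.43 over the CDS, with 3 above 1. The 8071 passing genes with under 10% shared had a median of -0.12 over exons, with 16.7% above 1. Over the CDS, 8070 such genes had a median of -0.10, with 1134 above 1. The share of E2 genes above 1 over the CDS was thus near that of all such genes. Across the 32 E2 genes the shared percentage and translational efficiency had a Spearman rho of 0.59 over exons and 0.76 over the CDS, a description of genes of the same libraries. Translational efficiency over exons also had a rho of -0.55 with counted CDS length and -0.42 with the counted share of the CDS. How reads with several matching places were counted is not given in the sources used here, and their part in these values was not tested.

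**Figure D5:**
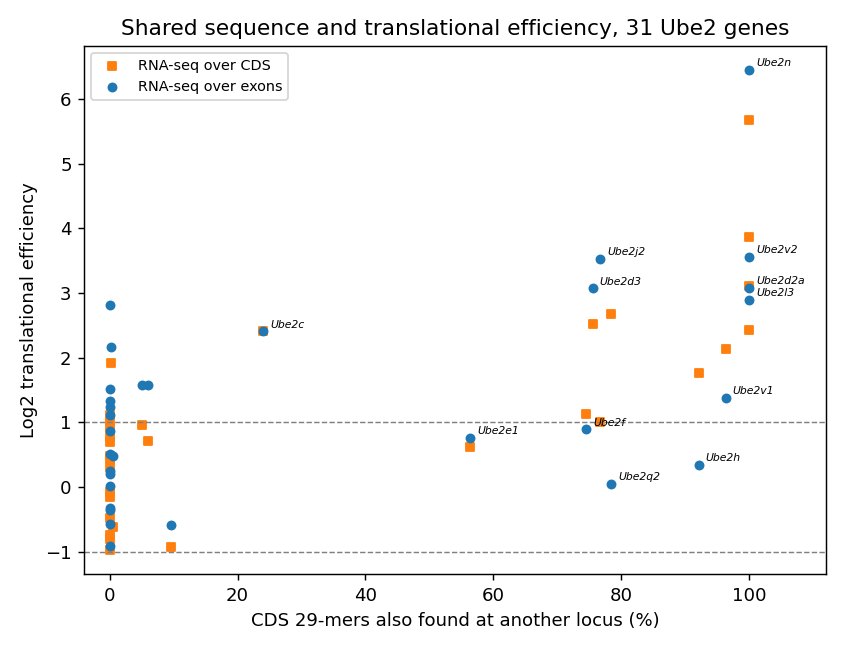
Percentage of a gene's CDS 29-mers also found at another locus (x axis) and log2 translational efficiency with RNA-seq over exons (circles) and over the CDS (squares), for 31 of the passing genes. Dashed lines mark -1 and 1, and names are given for genes with over 20% shared. The 19 genes with under 10% shared have a highest value of 2.81, in Ube2k.

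Coding regions of E2 genes are short, with a median counted length of 502.5 nt against 1353 nt over all passing genes. In a comparison chosen after seeing the data, the 20 E2 genes with 400 to 700 nt of counted CDS had a median log2 translational efficiency of 1.29, with 11 above 1. The 1282 passing genes of that length had a median of 0.71, with 40.2% above 1. Among those that also had under 10% shared 29-mers, the medians were 1.05 for 12 E2 genes and 0.64 for 909 passing genes. Of these, 6 of the 12 E2 genes and 37.0% of the 909 lay above 1. With RNA-seq over the CDS the medians became 0.51 and 0.44, with 3 of 12 and 252 of 909 genes above 1. The E2 share above 1 was then no higher than that of these passing genes. For all 20 E2 genes and 1282 passing genes of that length the medians over the CDS were 0.97 and 0.56. Above 1 were 10 of 20 and 419 of 1282 genes.

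Footprints on the 5′UTR were examined where it had a counted length of 60 nt or more and held at least 30 footprints, with at least 10 on the CDS. This was met by 7 E2 genes, among them *Ube2d3*, *Ube2h*, *Ube2j2*, *Ube2k*, *Ube2m* and *Ube2s*. Footprint density on the 5′UTR exceeded that of the CDS in 0 of them, where it did in 24.3% of 1102 genes. *Ube2d3* had 88.5 footprints on its 5′UTR, or 165 RPKM, against 432 RPKM on the CDS. *Ube2s* had 84.8, or 137 RPKM, against 269 RPKM on the CDS, with 0 and 2 RNA-seq counts on the same 5′UTR. Its exons overlap those of *Rpl28* on the opposite strand over 3.56% of their positions.

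All 37 rows together held 0.262% of the CDS footprints (95% Wilson interval 0.257 to 0.268%, counting error only). They held 0.283% and 0.274% of the RNA-seq counts on exons and 0.147% and 0.141% of those on the CDS. Their share of footprints was thus below that of RNA-seq on exons and above that of RNA-seq on the CDS.

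Other genes of the pathway give the setting. Of 11 E1 genes, 9 passed, with a median log2 translational efficiency of 0.67, 3 above 1 and 0 below -1. With RNA-seq over the CDS the median was 0.41, with 4 above 1. Among E1 genes that reached 100 counts in each library, *Sae1*, a subunit of the SUMO E1, was highest at 1.56 ± 0.03 (SD, n = 2), with 702 footprints and 1449 and 1811 RNA-seq counts. *Uba6*, which charges Ube2z, followed at 1.05 ± 0.27, with 333 footprints and 698 and 696 RNA-seq counts. The lowest E1 genes were *Atg7*, the E1 of autophagy, and *Nae1*, a subunit of the NEDD8 E1. *Atg7* stood at -0.08 ± 0.01, with 151 footprints and 691 and 900.0 RNA-seq counts, and *Nae1* at 0.13 ± 0.17, with 304 footprints and 810.4 and 885 counts.

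Of 13 modifier genes, 12 passed, with a median of 1.72, 10 above 1 and 0 below -1, and over the CDS 1.63 with 7 above 1. *Fau*, a fusion of a ubiquitin-like domain with ribosomal protein S30, was highest at 5.11 ± 0.14 (SD, n = 2), with 633 footprints and 226 and 337 RNA-seq counts, on 19.8% of its CDS and with all its 29-mers shared, and stood at 3.63 over the CDS. *Ufm1* followed at 3.54 ± 0.18, with 135 footprints and 575 and 622 counts, and 1.78 over the CDS. The lowest was *Atg12*, at 0.19 ± 0.03 with 104 footprints and 1306 and 1647 counts.

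Of 8 E2 and UEV genes outside the name rule, 7 passed, with a median of 0.18, 1 above 1 and 0 below -1. Over the CDS the median was -0.03, with 1 above 1 and 1, *Cdc34*, below -1. The gene above 1 was *Uevld*, with 141 footprints, or 28.1 RPKM, and 414 and 469.5 RNA-seq counts, or 8.39 and 7.28 RPKM. *Tsg101*, a UEV of the ESCRT machinery, followed at 0.99 ± 0.04 (SD, n = 2), with 279 footprints and 536 and 665 counts. Of the genes that reached 100 counts in each library, *Birc6* was lowest at -0.29 ± 0.07, with 651 footprints and 2119 and 2567 counts, and *Ufc1*, the E2 of UFM1, stood at 0.18 ± 0.02, with 219 footprints and 899 and 1135 counts.

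Partner E3 ligases lay around the median of all genes. Of 50 listed, 49 passed, with a median of -0.15, 6 above 1 and 7 below -1, and over the CDS -0.06 with 7 above 1 and 8 below -1. The small RING subunits *Rbx1* of the SCF and *Anapc11* of the anaphase-promoting complex were highest of those that reached 100 counts in each library. *Rbx1* stood at 4.08 ± 0.07 (SD, n = 2), with 229 footprints and 272 and 329 RNA-seq counts, on 45.8% of its CDS, and *Anapc11* at 3.55 ± 0.03, with 163 footprints and 449.7 and 599 counts. Over the CDS they stood at 3.80 and 1.28. *Rnf40*, a partner of the Rad6 type E2s, was lowest of those that reached 100 counts in each library, at -1.02 ± 0.05 with 191 footprints and 1248 and 1696 counts, and -0.78 over the CDS. *Ranbp2*, a SUMO ligase of the nuclear pore, stood at -0.90 ± 0.18, with 536 footprints and 2687 and 2918 counts.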

How the data were processed

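The authors trimmed the reads, aligned them to GRCm38 with STAR 2.6.1, used Bowtie2 2.4.1 to take ribosomal, mitochondrial and tRNA reads out of the ribosome profiling data, and counted genes with Plastid. The deposited estimated counts are not normalized and need not be whole. The deposited RPKM values, made by the authors with larger library totals, were used only for an alternative filter. The deposited counted lengths in nt, another kind of value, were the same in all files. The annotation release used for counting is not given in the sources used here.

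RPKM values of the text divide counts by counted length and by the exon sum of the library. To pass, a gene needed more than 1 RPKM in each RNA-seq replicate, a base mean over 25, and footprints on a CDS with a counted length. Base means used DESeq2 1.42.0 size factors on rounded counts, and edgeR 4.0.16 TMM factors were an alternative. Python 3.11.15, numpy 2.4.6, pandas 2.3.3, scipy 1.17.1, statsmodels 0.14.6, matplotlib 3.10.9 and R 4.3.3 were used. Counting errors combine footprints with both RNA-seq counts and cover counting only, since PCR copies are not independent molecules. One library shows a gene only from about 3 counts. The calculation was tested on simulated counts.

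Members and lists were chosen with earlier results of these data known. Values in every library are given for the 6 highest and 6 lowest members by translational efficiency that reached 100 counts in each library, the 5 highest by RNA-seq and by footprints, the 3 with the largest replicate difference, members whose 5′UTR held denser footprints than the CDS (none at the minimum length and footprints), members with under 25% of the CDS counted, and, with the same minimum, the 2 highest and 2 lowest genes of each pathway list. Results on some of these genes are not reported here. Comparisons by 29-mers and by CDS length were chosen after seeing the data. Sequences and gene structures come from GENCODE M21, of the same build, with 1 transcript per gene except for the 5′TOP motif. The long-read libraries were not used here.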

Additional observations from a re-analysis of the deposited data

Results flagged for a closer look

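Footprints outside the CDS and the 5′UTR were not part of the measurements above, and 2 genes held more than 30 footprints there. *Ube2c* had 37.5 footprints on the 171 nt of its counted 3′UTR, a density of 10.7% of that on its CDS, against a median of 1.71% over 4709 passing genes with at least 100 footprints on the CDS. *Ube2m* had 232 footprints on 267 nt of exon that were counted as neither CDS nor UTR, beside 279 on its counted CDS. Both counts are above the 3 that a count of 0 allows, and what they come from was not tested.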

How the results depend on the processing

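No paired analysis was possible because the result comes from no test and the groups hold 1 and 2 libraries. Library scaling by edgeR TMM or DESeq2 is no test of translational efficiency, since centring on the median of all genes nearly cancels it. Leaving out each RNA-seq replicate gave medians from 1.09 to 1.30 and RNA-seq levels from 0.66 to 0.74. Without replicate 1 only 31 genes passed, since *Ube2l6* dropped out, so the values of 1.30 and 0.74 belong to a changed set of genes. A minimum of 100 counts per library left 11 of 20 above 1 (18.8% of all genes). Counts not divided by length gave a median of 0.25, 8 above 1, 2 below -1 and an RNA-seq level of 0.42, and changed the sign of 10 genes. Of those above 1, *Ube2g1* went to -0.61 and *Ube2w* to -0.13. The others were *Ube2b* (-0.73), *Ube2d1* (-0.66), *Ube2g2* (-0.13), *Ube2h* (-1.78), *Ube2o* (0.26), *Ube2q2* (-0.62), *Ube2r2* (close to -1) and *Ube2z* (-0.38). RNA-seq over the CDS gave a median of 0.93 and a level of 1.10, and at least 80% of the CDS counted gave 0.69 and 10 above 1. The level was also 0.66 with a pseudocount of 1 RPKM, 0.38 with at least 100 counts, 0.91 with no filter and 0.52 with the filter on the deposited RPKM. Alternatives chosen after seeing the data, each centred again on the median of the genes kept, gave 0.60 with 7 of 22 above 1 (RNA-seq over the CDS and at least 80% counted, 17.3% of all genes), 0.63 with 8 of 19 (under 10% of 29-mers shared, 19.2%) and 0.54 with 5 of 19 (both RNA-seq over the CDS and under 10% shared, 16.1%). The cause was not tested. The 5′UTR count was 0 when 1 limit was changed at a time (10 footprints, 30 nt, or 10 RNA-seq counts), and at 100 footprints no gene was left. Below both the length and the footprint limit, *Ube2r2* had 12.2 footprints on 49 nt, or 70.2 RPKM against 57.5 RPKM on the CDS. There *Ube2g2* had 10.5 footprints on 53 nt, or 55.7 RPKM against 54.8 RPKM on the CDS. Below the footprint limit alone, *Ube2cbp* had 2.32 footprints on 99 nt, or 6.61 RPKM against 4.77 RPKM on the CDS. The share of footprints was 0.269% on exons.

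A single ribosome profiling library limits every value, since its spread between cultures is not known. Genes with few footprints have large counting errors, 0.64 in *Ube2l6*. How the deposited counting assigned reads of genes with shared sequence was not tested.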
